A study of Oryza sativa with 12 samples.

Results

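AUX/IAA genes and AUXIN RESPONSE FACTOR (ARF) genes encode the nuclear proteins through which plant cells read auxin, and their transcripts were followed here in rice roots. A gene was taken as a member when the authors' gene description held the AUX/IAA domain (PF02309) or the auxin response factor domain (PF06507), and a gene with the ARF domain was counted as an ARF even when it carried both. This gave 47 of the 41620 genes listed, 28 AUX/IAA genes and 19 ARF genes. The roots came from 3-wk-old Nipponbare seedlings that had spent 2 wk in hydroponic culture with limiting phosphate (low-Pi) or with ample phosphate (+Pi). The 4 groups were Os1400 at low-Pi, Os1400 at +Pi, wild type (WT) at low-Pi, and WT at +Pi, with 3 libraries in each. Os1400 is the line Os1400-12SIII, a homozygous CRISPR/Cas9 mutant of the OsMAX1 homolog Os01g0701400, the cytochrome P450 that hydroxylates the canonical strigolactone 4-deoxyorobanchol to orobanchol. It was the 1 mutant line that was sequenced, so the mutation cannot be told apart from anything else particular to that line. The study speaks of biological replicates, but neither it nor the labels say whether the libraries of a group came from separate plants or cultures, so each p-value measures the spread between these libraries, whatever its source.

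AUX/IAA proteins are short-lived repressors that bind ARFs and recruit co-repressors of the TOPLESS family. Auxin brings them together with F-box receptors of the TIR1/AFB family, which marks them for degradation and frees the ARFs to act on auxin-responsive promoters. Many AUX/IAA genes are themselves transcribed in response to auxin, so that the pathway feeds back on itself. In roots, auxin controls the initiation of lateral and crown roots, root hair growth, and the upkeep of the meristem, and root architecture is one of the traits that change when phosphate is scarce. The AUX/IAA domain at the C terminus, through which ARFs and AUX/IAA proteins pair, was listed in the descriptions of 8 of the 19 ARF members. The class name follows the annotation, which was not complete, since 4 further genes named IAA and 8 further genes named auxin response factor lacked the domain in their description and were not members. Of the members, 26 AUX/IAA and 18 ARF genes had a row in both count tables. The other 3, IAA28 (Os11g0221200), IAA29 (Os11g0221300), and the ARF-domain gene Os07g0183350, were listed at 0 FPKM in all 12 libraries. FPKM, the authors' fragment counts scaled by gene length and library, is used here for levels, and raw counts per gene were used for every test.

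The libraries held 28271749 to 41078078 counts each. The low-Pi WT libraries stood apart from the other 9, with 17711 to 22077 genes counted at least once against 27191 to 30375, and with 217 to 238 genes at 1 to 9 counts against 595 to 3413. Of the 20158 genes with at least 30 counts in each of the other 9 libraries, 25.2% had no count in at least 1 low-Pi WT library. The share was 20% for AUX/IAA genes (5 of 25) and 23.5% for ARF genes (4 of 17). The median log2 fold change of all genes tested was -0.28 for low-Pi over +Pi in WT and -0.0028 in Os1400, so changes in WT are to be read against that shift, which was -0.13 with upper-quartile scaling and 0.04 among genes that had 10 or more counts in each library. Core histone transcripts (41 genes) summed to 3929 to 5562 FPKM in low-Pi Os1400, 2496 to 2943 FPKM in +Pi Os1400, 9268 to 11048 FPKM in low-Pi WT, and 2809 to 3496 FPKM in +Pi WT. The 8 MCM genes, helicase subunits that also mark dividing cells, summed to 56.01 to 76.5 FPKM in low-Pi Os1400, 42.6 to 52.8 FPKM in +Pi Os1400, 23.4 to 50.8 FPKM in low-Pi WT, and 37.2 to 46.4 FPKM in +Pi WT, where the low-Pi WT range overlapped that of +Pi WT. The part of these differences in the results below was not tested, and in RNA of whole roots fewer cells of a type cannot be told apart from less RNA per cell. All 6 root markers fixed for the tissue check were detected in every library, but their sum ranged from 2213 to 3593 FPKM in low-Pi Os1400, 3522 to 3665 FPKM in +Pi Os1400, 2049.96 to 8073 FPKM in low-Pi WT, and 3877 to 4345 FPKM in +Pi WT. Among them, SHORT ROOT GENE 1 (Os07g0586900) had 11.6 to 13.4 FPKM in low-Pi Os1400 and 24.5 to 27.1 FPKM in +Pi Os1400, and 5.32 to 5.99 FPKM in low-Pi WT and 21.7 to 28.5 FPKM in +Pi WT. The silicon channel gene LOW SILICON RICE 1 (Os02g0745100) had 719, 507, and 4395 FPKM in low-Pi WT and 1268 to 1569 FPKM in +Pi WT. In Os1400, it had 180 to 500 FPKM at low-Pi and 1200 to 1420 FPKM at +Pi. RCc3 (Os02g0662000) went the other way in Os1400, with 1892 to 2889 FPKM at low-Pi and 870 to 1359 FPKM at +Pi. In WT, RCc3 overlapped, at 1355 to 2736 FPKM at low-Pi and 1377 to 1662 FPKM at +Pi. LOW SILICON RICE 2 (Os03g0107300) had 123 to 333 FPKM in low-Pi Os1400 and 1030 to 1199 FPKM in +Pi Os1400. SCARECROW 1 (Os11g0124300) had 4.51 to 5.54 FPKM in low-Pi Os1400 and 6.52 to 9.13 FPKM in +Pi Os1400. In WT, both overlapped between Pi supplies. QHB (Os01g0854500) overlapped in both genotypes, with 4.60, 0.125, and 1.40 FPKM in low-Pi WT. The part of these marker levels in the results was likewise not tested. The 20 chlorophyll a/b-binding protein genes summed to no more than 107 FPKM. SPX-domain genes, which sense phosphate status, summed to 711 to 860 FPKM in low-Pi Os1400 and 270.1 to 321 FPKM in +Pi Os1400, and to 1628 to 3128 FPKM in low-Pi WT and 235 to 280.1 FPKM in +Pi WT. The mutated gene was at 0 FPKM in both genotypes throughout and therefore checks no label.

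AUX/IAA transcripts were spread over a wide range of levels. Averaged over the 12 libraries, the 26 counted AUX/IAA genes lay between 0.589 and 264 FPKM, with a median of 50.4 FPKM, and 19 of them reached 10 FPKM. The 5 most abundant, IAA17, IAA13, IAA30, IAA3, and IAA21, held 55.9% of the summed level. IAA17 (Os05g0230700), the highest, had 236, 245, and 275 FPKM in low-Pi Os1400 and 246, 246, and 297 FPKM in +Pi Os1400. In WT it had 302, 221, and 220.1 FPKM at low-Pi and 302, 281, and 301 FPKM at +Pi. Within each genotype the Pi supplies overlapped, and neither Pi response of IAA17 passed the test (0.04 ± 0.13 in Os1400 and -0.30 ± 0.18 in WT, both as log2 fold change ± SE). ARF transcripts were less abundant, with means from 0.188 to 66.9 FPKM and a median of 12.1 FPKM over 18 genes. ARF7 (Os02g0557200), ARF2 (Os01g0927600), ARF16 (Os01g0236300), ARF9 (Os04g0442000), and ARF8 (Os02g0628600) held 71.2% of the summed ARF level. The 8 ARF genes whose description includes the AUX/IAA domain had a median of 25.9 FPKM, against 7.32 FPKM for the 10 without it. Replicates were tight in 3 groups and loose in the fourth: the median coefficient of variation over members with at least 30 counts in the other 9 libraries was 14.9% in low-Pi Os1400, 11.3% in +Pi Os1400, 29.6% in low-Pi WT, and 9.3% in +Pi WT for AUX/IAA genes, and 12.2%, 10.7%, 43.7%, and 8.83% in the same order for ARF genes.

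The first question was how each class responds to low Pi in the mutant. In Os1400, 10 of 26 AUX/IAA genes changed at an FDR of 0.05 or less, 8 rising and 2 falling, while 29.6% of all 27647 genes tested were called (15.6% higher and 14% lower). The 8 that rose were IAA11, IAA13, IAA30, IAA31, IAA9, IAA23, IAA12, and IAA24, and the 2 that fell were IAA2 and IAA15. The median log2 fold change over the 26 genes was 0.08. IAA13 (Os03g0742900), whose stabilized form in rice suppresses lateral root initiation, had 338, 293, and 343 FPKM in low-Pi Os1400, against 116, 128, and 132 FPKM in +Pi Os1400. That was a 2.77-fold rise (log2 1.47 ± 0.12, FDR = 3.02e-05), with no overlap between the groups. IAA13 overlaps another listed gene on the opposite strand, and whether the counting used strand is not given in the sources used here. IAA23 (Os06g0597000), known in rice from a stabilized form that disturbs the root quiescent center, had 83.2, 79.6, and 89.4 FPKM at low-Pi and 40.4, 44.5, and 46.7 FPKM at +Pi. Its rise was 2.05-fold (log2 1.04 ± 0.12, FDR = 0.000201). IAA24 (Os07g0182400) had 35.04, 41.9, and 46.95 FPKM at low-Pi and 29.4, 21.7, and 28.6 FPKM at +Pi, a smaller rise of 1.66-fold (log2 0.73 ± 0.17, FDR = 0.00834).

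In the opposite direction, IAA2 (Os01g0190300) had 10.2, 10.03, and 10.04 FPKM in low-Pi Os1400 and 19.99, 21.2, and 26.8 FPKM in +Pi Os1400. It fell 2.10-fold (log2 -1.07 ± 0.16, FDR = 0.000858). IAA15 (Os05g0178600) had 74.4, 73.2, and 80.5 FPKM at low-Pi and 121, 129.9, and 119.8 FPKM at +Pi, a fall of 1.52-fold (log2 -0.60 ± 0.11, FDR = 0.00265). Both of these repressors were lower in each low-Pi library than in any +Pi library of the mutant. Of the 10 calls, 9 held when any of the 6 libraries was left out. In a fit of all 12 libraries, IAA2 lost its call at nearly the same fold (log2 -1.06, FDR = 0.686). The exception was IAA9 (Os02g0805100), with 4.40, 6.57, and 11.5 FPKM at low-Pi and 3.99, 4.32, and 3.04 FPKM at +Pi (log2 1.08 ± 0.36, FDR = 0.0487), which kept its call in only 1 of the 6 fits, the one without low-Pi replicate 1, and lost it in the fit of all 12 libraries (FDR = 0.808).

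**Figure D1:**
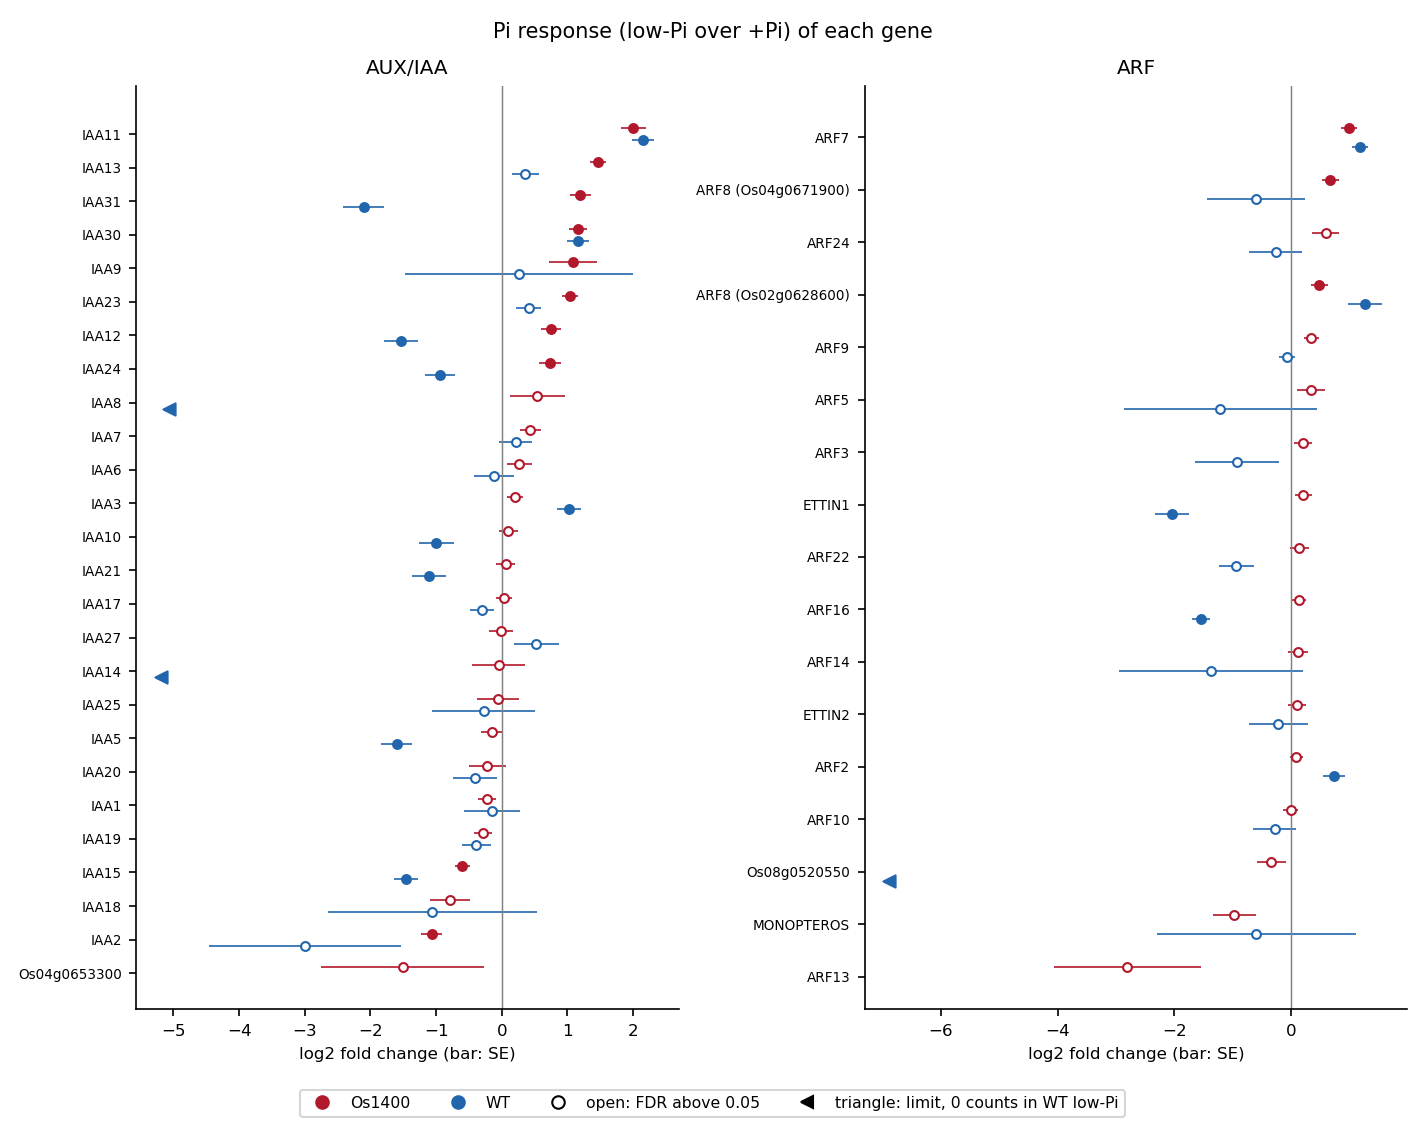
Log2 fold change of low-Pi over +Pi for counted AUX/IAA genes (left) and 17 of the 18 counted ARF genes (right), with Os1400 in red above WT in blue in each row and bars giving the SE from edgeR (3 libraries per group). Filled symbols passed an FDR of 0.05, triangles are limits for genes without a count in the 3 low-Pi WT libraries, and IAA31, IAA12, and IAA24 are filled on opposite sides of 0 in the 2 genotypes.

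In WT, 12 of 25 AUX/IAA genes changed under low Pi, 3 rising and 9 falling, while 23.7% of all 25163 genes tested were called (8.46% higher and 15.2% lower). The median over the 25 genes was -0.39, against the -0.28 of all genes. IAA11, IAA30, and IAA3 rose. IAA5, IAA8, IAA10, IAA12, IAA14, IAA15, IAA21, IAA24, and IAA31 fell. IAA3 (Os01g0231000) had 286, 216, and 317 FPKM in low-Pi WT, against 133, 124, and 133 FPKM in +Pi WT, a 2.03-fold rise (log2 1.02 ± 0.18, FDR = 0.0138). In Os1400, the same gene had 139.6, 118, and 146 FPKM at low-Pi and 114, 132, and 129 FPKM at +Pi, and those ranges overlapped (log2 0.20 ± 0.12, FDR = 0.265). IAA15 had 51.8, 59.1, and 44.2 FPKM in low-Pi WT and 151, 136, and 126 FPKM in +Pi WT. It fell 2.74-fold (log2 -1.45 ± 0.18, FDR = 0.00666) and was the 1 AUX/IAA gene called lower in both genotypes. IAA2, called lower in Os1400, had 0, 2.87, and 4.25 FPKM in low-Pi WT and 17.5, 18.9, and 18.9 FPKM in +Pi WT. Those ranges did not overlap, but the fall did not pass the test (log2 -2.99 ± 1.47, FDR = 0.222).

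IAA5 (Os01g0675700) had 34.5, 26.3, and 47.5 FPKM in low-Pi WT and 108, 106, and 105 FPKM in +Pi WT, a fall of 3.04-fold (log2 -1.60 ± 0.23, FDR = 0.00928). Like IAA13, it overlaps a listed gene on the other strand. IAA21 (Os06g0335500), among the 5 most abundant members, had 50.4, 95.4, and 83.4 FPKM at low-Pi and 157, 163, and 162 FPKM at +Pi in WT (log2 -1.11 ± 0.27, FDR = 0.0262). In Os1400, IAA21 had 155, 134, and 187 FPKM at low-Pi and 156, 153, and 179 FPKM at +Pi, which did not differ beyond their spread (log2 0.06 ± 0.14, FDR = 0.792). IAA24 had 17.8, 16.5, and 15.2 FPKM in low-Pi WT and 27.4, 34.3, and 30.4 FPKM in +Pi WT, a fall of 1.92-fold (log2 -0.94 ± 0.22, FDR = 0.0253) where the mutant showed a rise. With upper-quartile scaling this fall missed the threshold (log2 -0.79, FDR = 0.0599). IAA13, the strongest call in the mutant, had 202, 260.2, and 206 FPKM in low-Pi WT and 163, 200.2, and 143 FPKM in +Pi WT, with a lowest low-Pi value just above the highest +Pi value, and did not pass the test (log2 0.36 ± 0.20, FDR = 0.292). The WT count depended on single +Pi libraries. It was 4 without +Pi replicate 1, 6 without +Pi replicate 2, and 5 without +Pi replicate 3, but 12 to 14 when 1 of the low-Pi libraries was left out. Calls over all genes moved too, from 5962 of 25163 to 1845 of 25944, 3570 of 26121, and 1830 of 25932 without those +Pi libraries in turn. Without a low-Pi library, 6671 to 9043 genes were called. IAA5, IAA11, IAA15, and IAA31 were called in every such fit.

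**Figure D2:**
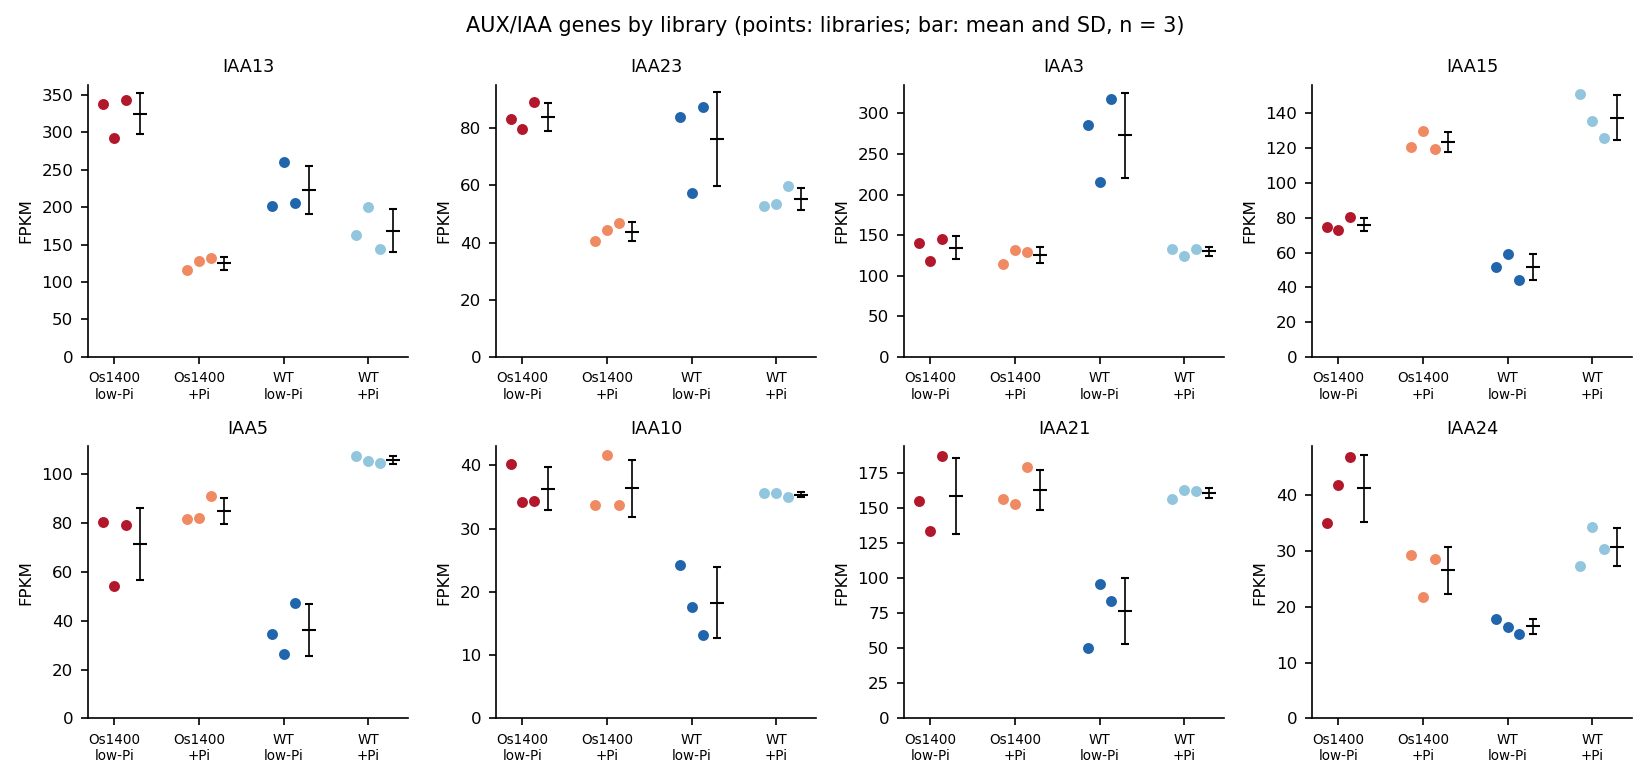
FPKM of 8 AUX/IAA genes in each library, by group from low-Pi Os1400 (left) to +Pi WT (right), with points for the 3 libraries and a bar for their mean and SD. IAA13 reached 293 to 343 FPKM in low-Pi Os1400, above every other library, and IAA3 reached 216 to 317 FPKM in low-Pi WT, above every other library.

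IAA11 and IAA12 lie next to each other on chromosome 3, and IAA30 and IAA31 on chromosome 12, with no listed gene between them. IAA11 (Os03g0633500, minus strand, chr3:24198649-24202021) and IAA12 (Os03g0633800, plus strand, chr3:24212554-24213858) are 10532 bases apart. IAA30 (Os12g0601300, minus strand, chr12:25310893-25316150) and IAA31 (Os12g0601400, plus strand, chr12:25325555-25327111) are 9404 bases apart. The coordinates are those of the authors' tables, whose genome build is not given in the sources used here. In each case the 2 genes point away from each other, and in WT 1 of them rose and the other fell under low Pi.

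IAA11, whose stabilized form blocks lateral root development in rice, had 71.96, 70.4, and 103 FPKM in low-Pi Os1400 and 22.9, 18.2, and 24.2 FPKM in +Pi Os1400. In WT, it had 119, 120.1, and 116 FPKM at low-Pi and 24.03, 23.99, and 29.5 FPKM at +Pi. The rise was 4.02-fold in Os1400 (log2 2.01 ± 0.18, FDR = 5.22e-05) and 4.45-fold in WT (log2 2.15 ± 0.16, FDR = 0.0025), and a difference between the genotypes was not detected (log2 -0.17 ± 0.25, FDR = 0.748). Its neighbor IAA12 had 79.9, 72.5, and 109 FPKM in low-Pi Os1400 and 53.96, 56.6, and 54.98 FPKM in +Pi Os1400. In WT, IAA12 had 26.3, 18.2, and 14.6 FPKM at low-Pi and 53.8, 57.99, and 54.2 FPKM at +Pi. IAA12 thus rose 1.69-fold in Os1400 (log2 0.75 ± 0.15, FDR = 0.00455) and fell 2.90-fold in WT (log2 -1.54 ± 0.26, FDR = 0.0131). Without WT +Pi replicate 1 or 3, the fall in WT missed the threshold. The interaction term, the Pi response in Os1400 minus that in WT, was 2.27 ± 0.29 (FDR = 0.000802). Interaction terms come from a fit that shares its estimate of a gene's spread over all groups, the loose low-Pi WT group included.

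IAA30 had 186, 181, and 226 FPKM in low-Pi Os1400 and 85.6, 92.1, and 106 FPKM in +Pi Os1400. In WT, it had 249, 305, and 271 FPKM at low-Pi and 108, 123, and 129 FPKM at +Pi. It rose by nearly the same factor in both, 2.24-fold in Os1400 (log2 1.16 ± 0.14, FDR = 0.000218) and 2.23-fold in WT (log2 1.16 ± 0.17, FDR = 0.00934). The interaction term was -0.01 ± 0.21 (FDR = 0.988). IAA31 had 176, 177, and 230.4 FPKM in low-Pi Os1400 and 79.7, 84.5, and 109 FPKM in +Pi Os1400. In WT, IAA31 had 37.2, 22.2, and 19.00 FPKM at low-Pi and 91.5, 136, and 97.6 FPKM at +Pi. All 3 low-Pi libraries of Os1400 were above, and all 3 low-Pi libraries of WT below, every +Pi library. IAA31 rose 2.28-fold in Os1400 (log2 1.19 ± 0.16, FDR = 0.000507) and fell 4.29-fold in WT (log2 -2.10 ± 0.31, FDR = 0.00986), which gave an interaction term of 3.28 ± 0.36 (FDR = 0.000395). This term held its call whichever library was left out.

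The ratio of the 2 neighbors within a library does not depend on how libraries were scaled. IAA31 over IAA30 was 0.943, 0.977, and 1.02 in low-Pi Os1400 and 0.931, 0.917, and 1.02 in +Pi Os1400. It was 0.149, 0.0729, and 0.07 in low-Pi WT and 0.851, 1.11, and 0.755 in +Pi WT. IAA12 over IAA11 was 1.11, 1.03, and 1.05 in low-Pi Os1400 and 2.36, 3.1, and 2.27 in +Pi Os1400. In WT, it was 0.22, 0.152, and 0.126 at low-Pi and 2.24, 2.42, and 1.84 at +Pi. The low-Pi WT libraries therefore had the lowest ratios of all 12 for both neighborhoods, and the IAA31 over IAA30 ratio in Os1400 stayed between 0.917 and 1.02 at either Pi supply.

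**Figure D3:**
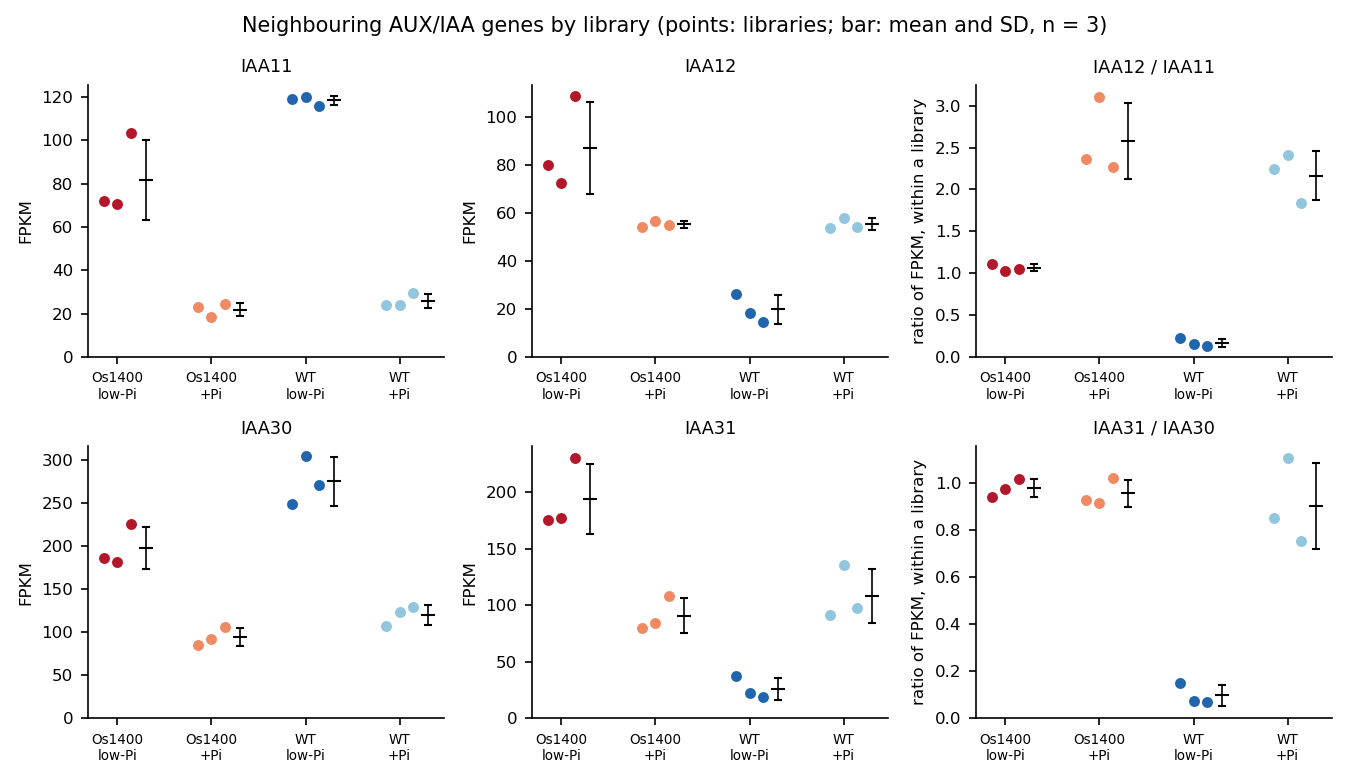
FPKM of the neighboring genes IAA11 and IAA12 (top) and IAA30 and IAA31 (bottom) by library and group, and the ratio of the 2 genes within each library (right column), with points for libraries and bars for the mean and SD (3 libraries). The low-Pi WT libraries had ratios of 0.126 to 0.22 (top) and 0.07 to 0.149 (bottom), below every other library.

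Across the AUX/IAA class, the Pi response differed between the genotypes in 11 of 26 genes, 10 with a higher value in Os1400 and 1 with a lower one. Over all 28691 genes tested, 13.4% were called (10.6% higher and 2.82% lower), and the split of 78.9% higher among those calls was 68.5% with upper-quartile scaling. Under that scaling, 9 AUX/IAA genes were called, 8 higher and 1 lower. Among genes with 10 or more counts in every library, 47.7% of the 2252 calls over 15280 genes were higher. Of the 20 AUX/IAA genes tested there, 8 were called, 7 higher and 1 lower. Besides IAA31 and IAA12, the genes with a higher response in Os1400 included IAA24 (1.66 ± 0.27, FDR = 0.00257), IAA5 (1.43 ± 0.28, FDR = 0.00678), IAA13 (1.09 ± 0.23, FDR = 0.0104), and IAA15 (0.83 ± 0.20, FDR = 0.0187). For IAA15, the higher value means that it fell less in Os1400 than in WT, and with upper-quartile scaling it was not called (FDR = 0.0714). IAA3 had the lower response in Os1400 (-0.84 ± 0.20, FDR = 0.0161). The others were IAA8 and IAA14, described below, and IAA10 and IAA21, with values of 1.08 and 1.15. The median interaction term over the class was 0.70, against 0.38 over all genes. Over all genes with 10 or more counts in every library, the median was -0.04. Among the 20 AUX/IAA genes that had 10 or more counts in each library, the Pi responses of the 2 genotypes had a Pearson's r of 0.43 and a Spearman's rho of 0.34. Over all 25 tested in both genotypes, fitted values of genes without counts included, r was 0.24 and rho was 0.42. These are descriptions across genes, whose log2 fold changes within a genotype come from the same 6 libraries.

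The ARF proteins are the transcription factors on which the AUX/IAA repressors act. In Os1400, 4 of 18 ARF genes changed under low Pi, all of them rising, beside the 15.6% of all genes called higher and 14% called lower by edgeR. Without adjustment, 8 of the 18 had a p of 0.05 or less, as did 11083 of all 27647 genes tested. The median over the 18 genes was 0.17. ARF7, the most abundant ARF, had 72.9, 77.8, and 88.7 FPKM in low-Pi Os1400 and 41.1, 38.2, and 49.6 FPKM in +Pi Os1400. In WT, ARF7 had 104, 95.9, and 105 FPKM at low-Pi and 40.2, 46.9, and 42.8 FPKM at +Pi. It rose 1.99-fold in Os1400 (log2 0.99 ± 0.14, FDR = 0.00064) and 2.27-fold in WT (log2 1.18 ± 0.14, FDR = 0.00529), with no overlap between Pi supplies in either genotype.

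The names of the tables assign ARF8 to 2 genes, which are kept apart here by their identifiers. ARF8 (Os02g0628600) had 33.5, 27.5, and 31.2 FPKM in low-Pi Os1400 and 26.4, 24.5, and 19.9 FPKM in +Pi Os1400, and 61.5, 36.1, and 82.2 FPKM in low-Pi WT and 23.4, 22.5, and 26.4 FPKM in +Pi WT. It rose 1.40-fold in Os1400 (log2 0.48 ± 0.14, FDR = 0.0288) and 2.40-fold in WT (log2 1.26 ± 0.30, FDR = 0.0244). ARF8 (Os04g0671900) had 17.4, 21.9, and 19.1 FPKM in low-Pi Os1400 and 12.2, 15.1, and 12.3 FPKM in +Pi Os1400, a 1.58-fold rise (log2 0.66 ± 0.14, FDR = 0.00669). In low-Pi WT, it ranged widely, at 1.02, 16.3, and 7.61 FPKM, against 12.3, 12.99, and 11.96 FPKM in +Pi WT (log2 -0.60 ± 0.85, FDR = 0.71). Only ARF7 and ARF8 (Os04g0671900) kept their calls when any 1 of the 6 libraries was dropped. The count of 4 was 2 without low-Pi replicate 1 or +Pi replicate 2, 7 without low-Pi replicate 2, and 1 in a fit of all 12 libraries. Calls over all genes were 8191 of 27647 in the reported fit. They were 5830 of 28531, 6077 of 28323, 7959 of 28526, and 2559 of 28691 in those alternatives, in the same order.

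In WT, 6 of 17 ARF genes changed under low Pi, 3 rising and 3 falling, beside the 8.46% of all genes called higher and the 15.2% called lower. Besides ARF7 and ARF8 (Os02g0628600), ARF2 rose, with 107, 72.5, and 107 FPKM in low-Pi WT and 57.4, 50.99, and 58.5 FPKM in +Pi WT (log2 0.73 ± 0.19, FDR = 0.0342). Without a filter on low counts, this rise just missed the threshold (FDR = 0.0507). In Os1400, ARF2 had 53.1, 53.1, and 58.4 FPKM at low-Pi and 56.1, 54.4, and 55.8 FPKM at +Pi, in overlapping ranges (log2 0.08 ± 0.11, FDR = 0.615). ARF16 fell in WT, with 20.7, 18.1, and 21.9 FPKM at low-Pi and 60.6, 58.8, and 51.1 FPKM at +Pi, a factor of 2.90 (log2 -1.54 ± 0.15, FDR = 0.00379). In Os1400, it had 64.9, 52.9, and 65.7 FPKM at low-Pi and 56.7, 62.1, and 60.5 FPKM at +Pi (log2 0.13 ± 0.12, FDR = 0.474). ETTIN1 (Os05g0563400) is named after Arabidopsis ETTIN, an ARF without the pairing domain that patterns floral and lateral organs. It had 3.59, 2.57, and 4.19 FPKM in low-Pi WT and 12.4, 14.01, and 14.9 FPKM in +Pi WT, a 4.13-fold fall (log2 -2.05 ± 0.29, FDR = 0.00878). In Os1400, ETTIN1 had 12.9, 13.1, and 14.6 FPKM at low-Pi and 14.6, 11.1, and 12.3 FPKM at +Pi (log2 0.20 ± 0.15, FDR = 0.344). ARF9, the other abundant ARF, overlaps a listed gene on the opposite strand, and its Pi response passed the test in neither genotype (log2 0.34 ± 0.13 in Os1400 and -0.07 ± 0.14 in WT). ARF16, ETTIN1, and ARF7 were called whichever library was left out. The count of 6 was 3 without WT +Pi replicate 3, where 1830 of all 25932 genes tested were called.

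**Figure D4:**
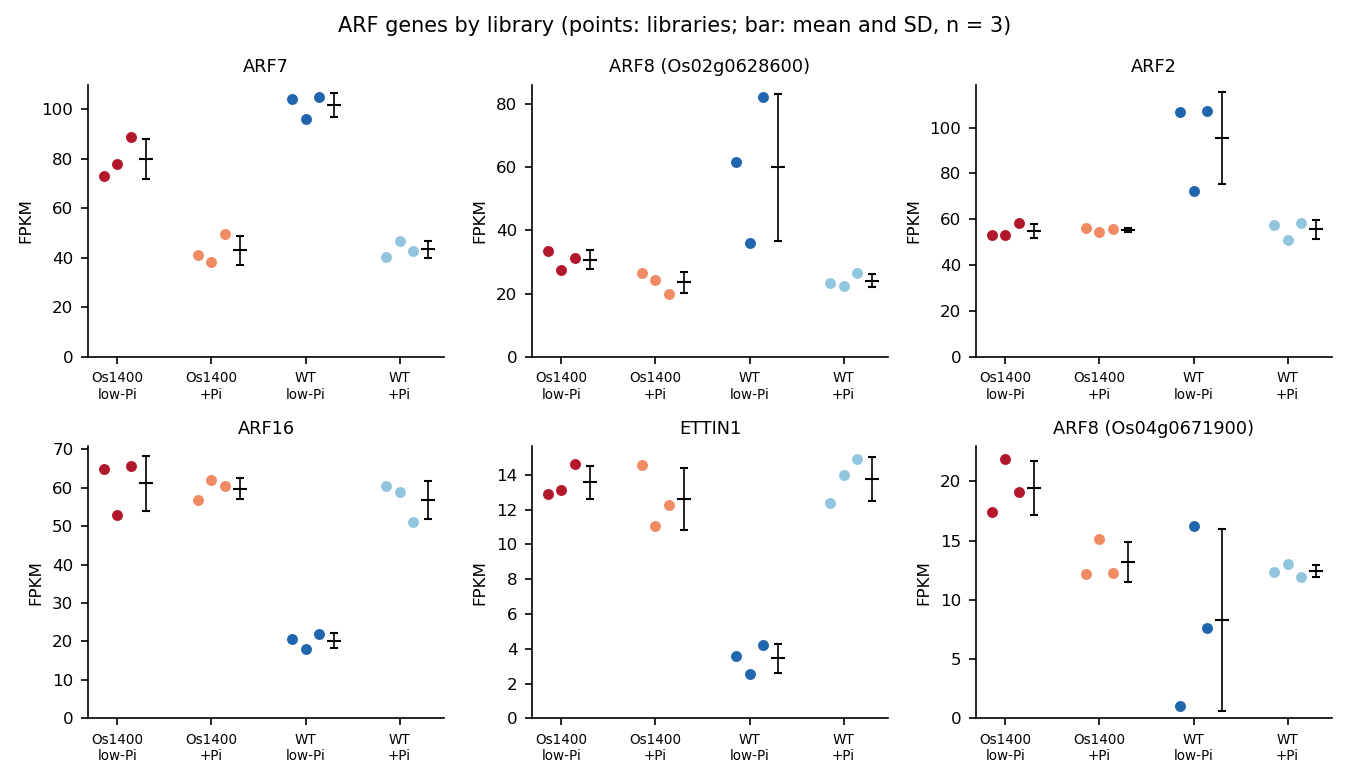
FPKM of 6 ARF genes in each library, by group from low-Pi Os1400 (left) to +Pi WT (right), with points for the 3 libraries and a bar for their mean and SD. ARF16 and ETTIN1 were lowest in the 3 low-Pi WT libraries, at 18.1 to 21.9 FPKM and 2.57 to 4.19 FPKM, and ARF7 had 72.9 to 105 FPKM in the 6 low-Pi libraries and 38.2 to 49.6 FPKM in the 6 +Pi libraries.

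The Pi response differed between the genotypes in 4 of 18 ARF genes, 3 higher in Os1400 and 1 lower, beside 10.6% and 2.82% of all genes. ETTIN1 had an interaction term of 2.24 ± 0.29 (FDR = 0.000748), ARF16 of 1.65 ± 0.18 (FDR = 0.00033), and ARF2 of -0.66 ± 0.20 (FDR = 0.0467). The fourth was the ARF-domain gene Os08g0520550. ARF2 lost its call in 10 of 12 fits without 1 library, and its FDR reached 0.137 over all alternatives. ARF7 responded in both genotypes, and a difference was not detected (-0.21 ± 0.19, FDR = 0.542). The median interaction term over the class was 0.99, against 0.38 over all genes. Over all genes with 10 or more counts in every library, the median was -0.04. Of the 13 ARF genes tested there, 3 were called, 2 higher and 1 lower. Of the 8 ARF genes listed with the AUX/IAA domain, 1 had a higher and 1 a lower response in Os1400, and of the 10 without it, 2 had a higher one.

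A set of members had no count at all in low-Pi WT. IAA8 (Os02g0723400), IAA14 (Os03g0797800), and Os08g0520550 each had at least 30 counts in the other 9 libraries and 0 counts in all 3 low-Pi WT libraries. IAA8 had 1.74, 4.20, and 4.29 FPKM in low-Pi Os1400, 1.95, 2.23, and 3.32 FPKM in +Pi Os1400, and 3.58, 1.84, and 1.59 FPKM in +Pi WT. IAA14 had 2.86, 1.82, and 2.82 FPKM in low-Pi Os1400, 2.29, 3.83, and 2.17 FPKM in +Pi Os1400, and 1.94, 3.20, and 4.24 FPKM in +Pi WT. Os08g0520550 had 5.55, 3.93, and 7.26 FPKM in low-Pi Os1400, 9.29, 6.68, and 6.77 FPKM in +Pi Os1400, and 5.95, 4.44, and 6.37 FPKM in +Pi WT. Set against a floor of 3 counts per library, low-Pi WT was at least 33.4-fold lower than +Pi WT for IAA8, at least 36.5-fold lower for IAA14, and at least 118-fold lower for Os08g0520550. By the same floor, low-Pi Os1400 was at least 51.2-fold higher than low-Pi WT for IAA8, at least 30.3-fold higher for IAA14, and at least 122-fold higher for Os08g0520550. The floor covers counting error only, and the limits hold against that error alone. Of genes with at least 30 counts in the other 9 libraries, 25.2% had no count in at least 1 low-Pi WT library. IAA8, IAA14, and Os08g0520550 were singled out here for their zeros, so their calls, which are counted above, add nothing to the values. Of the 20158 genes with at least 30 counts in the other 9 libraries, 658 likewise had no count in any low-Pi WT library. Os04g0653300 and ARF13, both below 1 FPKM on average, were also without counts there. IAA2, IAA9, IAA18, ARF5, ARF14, and MONOPTEROS were without counts in 1 low-Pi WT library only, while another library of the group had 146 to 364 counts, and none of the 6 was called in WT.

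The second comparison set Os1400 against WT at the same Pi supply. At low-Pi, 9 of 25 AUX/IAA genes differed, 8 higher and 1 lower in Os1400, beside 16.9% of all 25426 genes tested (12.4% higher and 4.47% lower). The class median was 0.21, against 0.22 for all genes. IAA31 had 176, 177, and 230.4 FPKM in Os1400 and 37.2, 22.2, and 19.00 FPKM in WT, a 7.81-fold difference (log2 2.97 ± 0.30, FDR = 0.0184). IAA12 was 4.62-fold higher in Os1400 (log2 2.21 ± 0.28, FDR = 0.0184), and IAA24 2.63-fold higher (log2 1.39 ± 0.21, FDR = 0.0184). IAA21, IAA10 (Os02g0817600), and IAA5 were higher by 1.11 ± 0.28, 1.06 ± 0.27, and 1.05 ± 0.27 on the log2 scale, and the remaining 2 were IAA8 and IAA14. IAA3 was lower in Os1400, by a factor of 1.93 (log2 -0.95 ± 0.19, FDR = 0.019). IAA11 had 71.96, 70.4, and 103 FPKM in low-Pi Os1400 and 119, 120.1, and 116 FPKM in low-Pi WT. These ranges did not overlap, but the difference did not pass the test (log2 -0.47 ± 0.19, FDR = 0.166).

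Among ARF genes at low-Pi, 5 of 17 differed, 4 higher and 1 lower in Os1400, beside 16.9% of all genes tested (12.4% higher and 4.47% lower). ETTIN1 was 4.14-fold higher (log2 2.05 ± 0.28, FDR = 0.0184) and ARF16 3.17-fold higher (log2 1.67 ± 0.16, FDR = 0.0184). ARF22 (Os10g0479900) had 15.1, 13.01, and 20.4 FPKM in Os1400 and 5.31, 7.49, and 9.44 FPKM in WT (log2 1.19 ± 0.30, FDR = 0.0414). ARF2 was lower in Os1400 (log2 -0.73 ± 0.19, FDR = 0.0462), and Os08g0520550 was the fourth higher gene. The class median was 0.90, against 0.22 for all genes. The folds held when a library of the mutant was left out, but the calls did not. Over the 11 called members with counts in low-Pi WT, the largest move of a log2 value on leaving out a mutant library was 0.169. Over all alternatives, those without a WT library included, values ranged further. IAA21 was between 0.88 and 1.36, ARF22 between 0.99 and 1.39, and IAA31 between 2.79 and 3.29. ARF16 was at 1.63 without low-Pi Os1400 replicate 1 and at 1.64 without replicate 3, and IAA3 at -0.97 and -0.98, while the FDRs of the 11 members were then between 0.0544 and 0.201. Without low-Pi Os1400 replicate 1 or replicate 3, none of the members was called by edgeR, nor was any other gene, although 5515 and 5622 genes then had an unadjusted p of 0.05 or less. Without low-Pi Os1400 replicate 2, 3 AUX/IAA and 2 ARF genes were called, beside 2105 of all 26391 genes tested. Without a filter on low counts, IAA5, IAA10, IAA14, IAA21, ARF2, and ARF22 missed the threshold, with FDRs of 0.0541 to 0.0675, and IAA10 also missed it with upper-quartile scaling (log2 0.92, FDR = 0.0929).

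**Figure D5:**
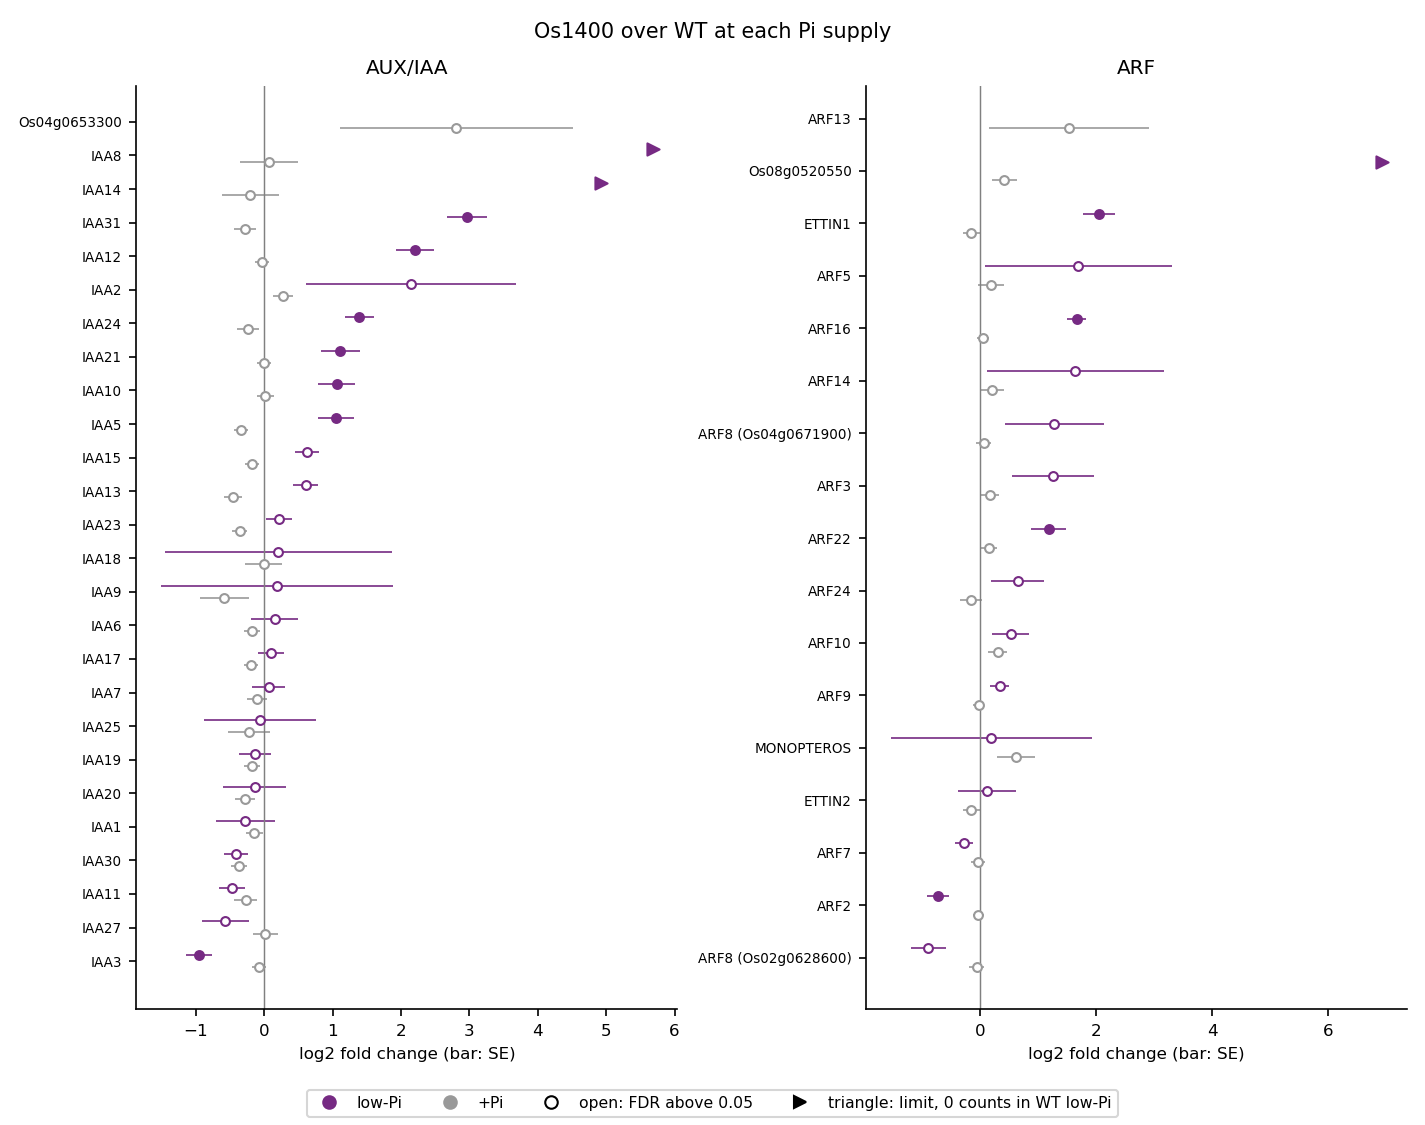
Log2 fold change of Os1400 over WT for counted AUX/IAA genes (left) and 17 of the 18 counted ARF genes (right), at low-Pi (purple, upper symbol) and at +Pi (gray, lower symbol), with bars for the SE from edgeR (3 libraries per group). Filled symbols passed an FDR of 0.05 and triangles are limits for genes without a count in low-Pi WT; no gray symbol is filled, while 9 AUX/IAA and 5 ARF symbols are filled at low-Pi.

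At +Pi, none of the 26 AUX/IAA and none of the 18 ARF genes differed between Os1400 and WT by edgeR, where 0.958% of all 27777 genes were called (0.54% higher and 0.418% lower). Before adjustment, 4 AUX/IAA genes and 0 ARF genes had a p of 0.05 or less, as did 2797 of all 27777 genes. The 4 genes, named here after their values were seen, were IAA13, IAA5, IAA23, and IAA30, and all 4 were lower in Os1400. IAA13 had 116, 128, and 132 FPKM in +Pi Os1400 and 163, 200.2, and 143 FPKM in +Pi WT, with no overlap (log2 -0.45 ± 0.13, FDR = 0.169). IAA5 had 81.9, 82.2, and 91.01 FPKM in +Pi Os1400 and 108, 106, and 105 FPKM in +Pi WT (log2 -0.34 ± 0.10, FDR = 0.192). DESeq2 called IAA13 and IAA5, with FDRs of 0.0238 and 0.0462, and no ARF gene, where 1.97% of the 32683 genes with a DESeq2 p were called (1.08% higher and 0.887% lower). The point estimate was below 0 for 21 of the 26 AUX/IAA genes, with a median of -0.18, against 0.01 for all genes, and for 7 of the 18 ARF genes, with a median of 0.05.

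The summed counts of each class, divided by the library's total count, give its share of that library with no further scaling. AUX/IAA genes made up 2833 ± 218 CPM (counts scaled to the library total) in low-Pi Os1400 and 2215 ± 164 in +Pi Os1400 (SD, n = 3 each), and 2058 ± 226 in low-Pi WT and 2437 ± 62.8 in +Pi WT. ARF genes made up 1232 ± 80.9 CPM in low-Pi Os1400 and 1004 ± 32.6 in +Pi Os1400, and 938 ± 65.1 in low-Pi WT and 948 ± 6.41 in +Pi WT. Both classes were higher at low-Pi than at +Pi in Os1400 without overlap, AUX/IAA genes were lower at low-Pi in WT without overlap, and ARF sums in WT overlapped. Between genotypes, both classes were higher in Os1400 at low-Pi without overlap, by 1.38 times for AUX/IAA and 1.31 times for ARF genes, the ARF sum was also higher in Os1400 at +Pi without overlap, by 1.06 times, and the AUX/IAA sums at +Pi overlapped. For each of the 6 comparisons without overlap, of 8 made, the two-sided exact permutation test gave p = 0.1, the smallest value that 3 against 3 libraries allow, and 0.133 after Benjamini-Hochberg adjustment over the 8. The summed FPKM, which weight genes by length and carry the authors' library scaling (denominators of 0.734 to 0.957 times the total count in low-Pi WT and 1.01 to 1.11 times in the other 9), differed from this in 3 places. AUX/IAA sums in WT overlapped, at 1638 to 1710 FPKM at low-Pi and 1673 to 1729.5 FPKM at +Pi. ARF sums at low-Pi overlapped, at 369 to 436 FPKM in Os1400 and 318 to 418 FPKM in WT. AUX/IAA sums at +Pi did not overlap, at 1437 to 1586 FPKM in Os1400 and 1673 to 1729.5 FPKM in WT.

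Other genes of the pathway gave a frame for these values. Of the 5 TIR1/AFB receptor identifiers listed, 3 carried a receptor or F-box term in their name and were counted. No receptor passed the test of the Pi response by edgeR, with FDRs of 0.0584 to 0.595 in Os1400 and 0.0584 to 0.923 in WT. AFB2 (Os04g0395600) was lower in Os1400 at low-Pi (log2 -0.81 ± 0.17, FDR = 0.0209). Of 3 TOPLESS-family co-repressors, TOPLESS-RELATED PROTEIN 1 (Os01g0254100) fell in Os1400 (log2 -0.54 ± 0.14, FDR = 0.0139), and all 3 fell in WT, with log2 fold changes of -1.96 ± 0.55, -1.79 ± 0.39, and -0.81 ± 0.17. Their interaction terms had FDRs of 0.0607 to 0.0811. The counts of the larger lists stand beside shares of 15.6% higher and 14% lower among all genes tested in Os1400, and 8.46% higher and 15.2% lower in WT. GH3 genes encode enzymes that conjugate auxin to amino acids, and 10 of 15 were tested: 3 fell and 0 rose in Os1400, and 1 fell and 0 rose in WT. Of the PIN and PIN-like carriers, 3 rose and 5 fell among 17 tested in Os1400, and 2 rose and 1 fell among 13 tested in WT. Of the SAUR genes, a family of early auxin-responsive transcripts, 4 rose and 7 fell among 28 tested in Os1400, and 2 rose and 4 fell among 22 tested in WT.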

How the data were processed

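Root RNA of 12 libraries was sequenced paired-end, and the libraries were grouped by the genotype and Pi supply in the sample labels. The submitters' processing notes name HISAT2 2.0.5, featureCounts 1.5.0-p3, and DESeq2, and the genome build and annotation release are not given in the sources used here. The deposited counts are unnormalized reads per gene, in a separate table for each Pi supply, with 32722 genes at +Pi and 31952 at low-Pi, and Pi responses used the 30742 genes in both. The deposited FPKM divide fragments by gene length and by a library denominator that was 0.734 to 1.11 times the library's total count, so they carry a scaling by the authors. The authors' own log2 fold changes, p-values, and adjusted p-values of the genotype comparison were not used, nor were 28 columns of group means or repeated per-library values.

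Counts were tested in R 4.3.3 with edgeR 4.0.16 (TMM, filterByExpr with minimums of 10 and 15 counts, and the quasi-likelihood test), on all genes of the 6 libraries compared or, for the interaction, of all 12. FDRs are Benjamini-Hochberg adjusted over all genes tested, and 0.05 or less made a call. The SE of a log2 fold change was derived from the fold change and its test statistic. The fits were also run on simulated counts with the same spread setting in every gene and group. That differs from the loose low-Pi WT group, so the simulation does not show how the fits behave there. Alternatives were DESeq2 1.42.0, RLE and upper-quartile factors, no filter, 10 counts in every library, a replicate block, a fit of all 12 libraries, and leaving out each library. With 28271749 to 41078078 counts per library, 3 counts, the floor used for genes without counts, were 0.073 to 0.106 CPM, the counts scaled to library totals. The libraries carry no molecular identifiers, so that floor covers counting error only.

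The members, lists, and tests were chosen with earlier results of these data known. Genes described singly were, in each comparison and class, the called members, at most the 8 with the smallest p in each direction, and the 5 members of each class with the highest mean FPKM. Among them, 1 ARF gene is not reported here singly, though it stays in the class counts. GH3 (PF03321), PIN (PF03547), SAUR (PF02519), and SPX (PF03105) genes were taken by domain. The 3 TOPLESS-family genes were to be checked for a WD40 domain, but their descriptions were blank, so they were accepted by identifier and name, and 2 receptor identifiers without a matching term were left out. Markers were 6 root genes, chlorophyll a/b-binding (PF00504) and RuBisCO small subunit (PF00101) genes for green tissue, and core histone (PF00125) and MCM (PF00493) genes for dividing cells. The 6 RuBisCO genes summed to 1.82 to 21.4 FPKM over all libraries.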

Additional observations from a re-analysis of the deposited data

Results flagged for a closer look

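The Pi response differed between Os1400 and WT in 13 of the members described singly for this comparison, by the interaction term of the edgeR fit of all 12 libraries. IAA21 (log2 1.15, FDR = 0.031) and IAA10 (log2 1.08, FDR = 0.0358) were called as well. That fit shares its estimate of a gene's spread over all groups. Replicates were loosest in low-Pi WT, with a median coefficient of variation of 29.6% for AUX/IAA and 43.7% for ARF genes. All values are log2 differences, Os1400 minus WT. Among AUX/IAA genes, IAA31 had 3.28, IAA12 2.27, IAA24 1.66, IAA5 1.43, IAA13 1.09, IAA15 0.83, and IAA3 -0.84. Among ARF genes, ETTIN1 had 2.24, ARF16 1.65, and ARF2 -0.66. IAA8, IAA14, and Os08g0520550 had fitted values of 10.36, 9.90, and 11.29, which depend on the prior count of the fit because the low-Pi WT libraries held no count of these genes, and they bound nothing. Of the 13, 11 were positive, where 78.9% of all calls of this test were positive. Among genes with 10 or more counts in every library, 47.7% of the calls were positive. The low-Pi WT libraries, with the fewest genes counted, enter every one of the 13 terms. The part of those libraries in the values was not tested.

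IAA31 and IAA12 moved in opposite directions in the 2 genotypes while their neighbors IAA30 and IAA11 moved in the same direction. IAA24 also rose in Os1400 and fell in WT. Without WT low-Pi replicates 1, 2, or 3 in turn, 11 to 12 AUX/IAA genes were called in the interaction, beside 5196 to 6658 of all genes.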

How the results depend on the processing

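The count of AUX/IAA genes called for the Pi response in Os1400 was 8 to 10 under the other settings and 9 to 11 when 1 library was left out, and that for the interaction was 8 to 11 and 8 to 12, against 10 and 11 reported. The other counts moved more. For the Pi response in WT, leaving out 1 library gave 4 to 14 AUX/IAA genes and 3 to 7 ARF genes. Calls over all genes then ranged from 1830 to 9043. For Os1400 against WT at low-Pi, leaving out 1 library gave 0 to 9 AUX/IAA genes and 0 to 5 ARF genes, beside 0 to 7168 of all genes. For the Pi response in Os1400, it gave 2 to 7 ARF genes, beside 5830 to 8039 of all genes. Without a low-count filter, 5 AUX/IAA and 3 ARF genes were called between the genotypes at low-Pi, beside 1274 of all 31952 genes. At +Pi, DESeq2 called 2 AUX/IAA genes where edgeR called 0, and over all genes it called 1.97% where edgeR called 0.958%. In a fit of all 12 libraries, 1 ARF gene was called for the Pi response in Os1400, beside 2559 of all 28691 genes. With the replicate number as a block, 7 AUX/IAA and 3 ARF genes were called for the Pi response in WT, and 3 AUX/IAA and 2 ARF genes between the genotypes at low-Pi. Over all genes, 1943 of 25163 and 1045 of 25426 were called with the block, against 5962 and 4301 in the reported fits. The numbers do not pair the libraries by any label. For Os1400 against WT at low-Pi, the correlations of same-numbered libraries were 0.0008, 0.13, and 0.16. Those of different-numbered libraries were between -0.17 and 0.05 there. In the other comparisons, same-numbered libraries had correlations between -0.03 and 0.02. Whether a call lost under the block marks a weaker effect was not tested. The cause of these moves was not tested.

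For single genes, 4 values changed sign, none of them called: the Pi response of ARF9 in WT was 0.076 with upper-quartile factors, that of IAA17 in Os1400 was between -0.014 (without low-Pi replicate 3) and 0.156 when 1 library was left out, with -0.0017 without +Pi replicate 2, and that of IAA21 in Os1400 was between -0.057 (without low-Pi replicate 3) and 0.169. Of 927 values of single genes under an alternative, 788 kept direction and side of the threshold, 133 lost a call, and 2 gained one. Of the 133, 98 came from leaving out a library. Across all genes, the split of calls at low-Pi between the genotypes was 73.6% higher, against 42% higher among genes with 10 counts in every library, and the corresponding shares for the Pi response in WT were 35.7% and 55.5%. For the interaction, the shares were 78.9% and 47.7%. For a gene at 0 counts in a low-Pi WT library, the floor of 3 counts allows for counting error alone. Libraries of that group also differed by more than this, as for IAA9, with 0 counts in 1 of them and 364 in another.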
